A study of Brassica napus with 9 samples.

Results

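The genes BnaA05g05420D and BnaC04g04830D are listed by the study as *B. napus* counterparts of *PYL6*, a receptor for the plant hormone abscisic acid (ABA), and were followed in guard cell protoplasts. They are 2 of the 101040 genes in the count table. The first ID places its gene on chromosome A05 and the second on chromosome C04, which come from the A and the C genome of this allopolyploid oilseed crop, and both genes passed the filter on low counts that left 52881 genes for testing. The pair was chosen with its response to ABA known. All of its differences between treatments are therefore given as descriptions, with no test.

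All samples were guard cell protoplasts from leaves of *B. napus* DH12075, a double haploid line, kept in light at room temperature. There were 3 mock-treated samples, which received ethanol, 3 samples exposed for 15 min to 10 µM ABA in ethanol, and 3 samples exposed to the same dose for 60 min. Each sample pooled 3 to 5 protoplast preparations, and replicate numbers 1, 2 and 3 each joined 1 sample of every treatment. The labels give 1 set of mock-treated samples and no separate mock for each exposure time, so both ABA groups were set against the same 3 libraries. The study's model codes the mock-treated samples as time 0, and how long they were kept before freezing is not stated. An effect of time in incubation therefore cannot be told apart from one of ABA.

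ABA accumulates in plants under water deficit and closes the stomatal pore by acting on its guard cells. In *A. thaliana*, a PYR/PYL receptor that has bound ABA captures and inhibits protein phosphatases of clade A (PP2Cs such as ABI1, HAB1 and AHG3). The phosphatases otherwise hold SnRK2 kinases, including OST1, inactive. Freed kinases phosphorylate the bZIP transcription factors of the ABF and ABI5 group and the anion channels that start closure, among them ALMT12. PYL4, PYL5 and PYL6 belong to the monomeric receptors, whereas PYR1, PYL1 and PYL2 form dimers that ABA opens.

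Total counts ranged from 88051359 to 123968001 reads per sample. Levels are given as CPM, the reads of a gene relative to the reads of its library, after TMM scaling, which adjusts each library for differences in RNA composition. At these totals a count of 3 reads corresponded to between 0.0211 and 0.0308 CPM. The guard cell genes of the study's list, 3 rows for the kinase gene *MPK12*, 2 for *ALMT12* and 2 for *OST1*, were read in every library. Their summed level ranged from 227 to 838 CPM in mock-treated samples, from 243 to 1079 CPM at 15 min and from 638 to 2416 CPM at 60 min, and was highest in replicate 3 of each group. The study picked its list for a change in these data, and all 5 *MPK12* and *ALMT12* genes and both *OST1* genes rose at 60 min. The sums therefore do not measure guard cell content between treatments. The gene *CAB1* (BnaC03g59520D), which encodes a chlorophyll-binding protein, was taken as the mesophyll marker. *CAB1* ranged from 19.8 to 43.0 CPM in mock-treated samples, from 22.1 to 46.9 CPM at 15 min and from 34.7 to 56.8 CPM at 60 min. It was lowest in replicate 3 of each group. Replicate 3 thus carried more reads of the guard cell list and fewer of the mesophyll gene, and the values of the pair are given for each replicate number. The part of these differences in the results for the receptors was not tested, and in pooled protoplasts fewer cells of a type and less RNA per cell cannot be told apart.

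BnaA05g05420D was read 214, 58 and 1770 times in mock-treated replicates 1, 2 and 3. It was read 151, 16 and 311 times at 15 min, and 5, 6 and 16 times at 60 min. Few reads thus remained in all 3 samples taken at 60 min, where exact Poisson 95% intervals of the counts were 1.62 to 11.7, 2.20 to 13.1 and 9.15 to 26.0 reads. These intervals cover counting error only. The levels were 2.20, 0.5004 and 12.9 CPM in mock-treated replicates 1, 2 and 3, then 1.12, 0.147 and 2.19 CPM at 15 min, and 0.0502, 0.0601 and 0.141 CPM at 60 min. All 60-min samples lay below all mock-treated samples, and the highest 60-min sample (0.141 CPM) lay just below the lowest 15-min sample (0.147 CPM). The 15-min samples overlapped with the mock-treated ones.

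The group means of BnaA05g05420D were 5.19 ± 6.71 CPM with mock treatment, 1.15 ± 1.02 CPM at 15 min and 0.0836 ± 0.0496 CPM at 60 min (SD, n = 3 each). The fit to all samples gave a log2 fold change of -5.72 (SE 0.48) for 60 min against mock and of -1.83 (SE 0.33) for 15 min against mock. Between 60 min and 15 min it gave -3.89 (SE 0.53). In the first of these comparisons the value was the lowest among the 52881 genes tested, in the second it ranked 17 from the lowest and in the last it ranked 3. These ranks describe how the gene was found, and nothing is read from them.

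BnaC04g04830D was read 175, 49 and 1303 times in mock-treated replicates 1, 2 and 3, then 168, 59 and 283 times at 15 min and 24, 19 and 42 times at 60 min. The exact Poisson 95% intervals at 60 min were 15.4 to 35.7, 11.4 to 29.7 and 30.3 to 56.8 reads, so that more reads remained than for the gene on A05. Its levels were 1.80, 0.423 and 9.48 CPM with mock treatment, 1.25, 0.543 and 1.99 CPM at 15 min and 0.241, 0.190 and 0.369 CPM at 60 min. The samples taken at 60 min lay below every sample of both other groups. At 15 min the levels overlapped with those of mock-treated samples, and in replicate 2 the level at 15 min was above that of the mock-treated sample.

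The group means of BnaC04g04830D were 3.90 ± 4.88 CPM with mock treatment, 1.26 ± 0.725 CPM at 15 min and 0.267 ± 0.0922 CPM at 60 min (SD, n = 3 each). The fitted log2 fold change was -3.44 (SE 0.54) for 60 min against mock, -1.12 (SE 0.43) for 15 min against mock and -2.32 (SE 0.57) for 60 min against 15 min. It ranked 7, 157 and 33 from the lowest in these comparisons. Levels below those of every mock-treated sample, as both genes showed at 60 min, were present in 6.16% of all genes tested. The corresponding background was 0.906% for 15 min against mock and 5.91% for 60 min against 15 min.

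**Figure D1:**
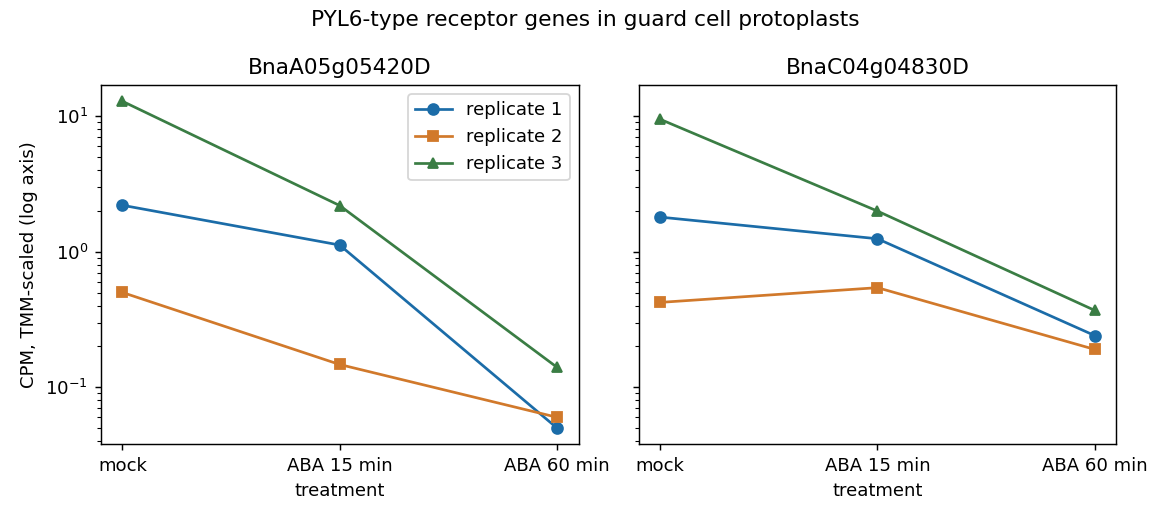
Level of BnaA05g05420D (left) and BnaC04g04830D (right) in TMM-scaled CPM on a log axis, for mock treatment, 15 min of ABA and 60 min of ABA. Each point is 1 sample and each line joins the samples of 1 replicate number. The mock-treated samples are spread from 0.5004 to 12.9 CPM on A05 and from 0.423 to 9.48 CPM on C04, and the lines draw together at 60 min.

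The size of the difference depended on the replicate number. For BnaA05g05420D the log2 ratio of 60 min to mock was -5.04, -2.74 and -6.35 in replicates 1, 2 and 3, which is a level 43.9, 8.33 and 91.5 times below the mock value of its own replicate. At 15 min the ratio to mock was -0.96, -1.65 and -2.55, and the level was below that of the matching mock-treated sample in all 3 replicates. The log2 difference seen at 15 min was thus 19.1%, 60.3% and 40.1% of the one seen at 60 min.

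For BnaC04g04830D the log2 ratio of 60 min to mock was -2.82, -1.08 and -4.62 in replicates 1, 2 and 3, or 7.48, 2.22 and 25.7 times lower. The ratio of 15 min to mock was -0.52, 0.35 and -2.24. The 3 replicates therefore did not share a direction at 15 min, although they did at 60 min. In replicate 2 the mock-treated and 15-min samples had 49 and 59 reads, whose exact Poisson 95% intervals overlapped (36.3 to 64.8 and 44.9 to 76.1). Between 60 min and 15 min the log2 ratios were -2.29, -1.43 and -2.38 for BnaC04g04830D and -4.08, -1.09 and -3.81 for BnaA05g05420D. Without replicate 3, the fitted value at 15 min against mock was -0.20 for the gene on C04 and -1.20 for the gene on A05. Without that replicate, the values at 60 min against mock were -2.21 and -4.54.

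The levels of both genes varied between mock-treated samples far more than those of most genes. The highest sample, replicate 3, exceeded the lowest, replicate 2, by 25.7 times for BnaA05g05420D and by 22.4 times for BnaC04g04830D. Replicate 1 exceeded replicate 2 by 4.40 and 4.26 times. On the log2 scale the SD over the 3 mock-treated samples was 2.32 on A05 and 2.22 on C04, against a median of 0.47 and 0.46 among the 1000 genes closest to each in mean level. This SD was larger than that of 99.4% and 99.8% of those genes.

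The spread was smaller after ABA. At 15 min the SD was 1.95 for BnaA05g05420D and 0.93 for BnaC04g04830D, and at 60 min it was 0.66 and 0.46. The 60-min values were larger than those of 68.9% and 51.2% of the same 1000 genes. Those genes were matched on mean level over all samples, and at 60 min both members of the pair lay below that mean. The log2 values used a prior count of 2, and with 0.5 the 60-min SD was 0.76 and 0.48. The highest and lowest 60-min samples differed by 2.80 and 1.94 times. Among the other 16 receptor genes the SD was smaller at 60 min than with mock treatment for 15, with a median of 0.48 at 60 min and 0.90 with mock treatment. The same held for 13 of 19 PP2C genes and for 53.3% of all genes tested. In all 16 of these receptor genes the mock-treated sample of replicate 3 had the highest level, as it had in both members of the pair. The same pattern was present in all 5 listed *MPK12* and *ALMT12* genes, both *OST1* genes and 5 of 11 bZIP genes, so it was not particular to receptors. It was present in 1 of 19 PP2C genes and in 34.5% of all genes. Replicate 3 exceeded replicate 2 by a median of 3.49 times (range 1.80 to 8.01) over the 16 genes in mock-treated samples. The 60-min difference from mock was most negative in replicate 3 for 15 of them.

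The reads of the pair shifted toward the C04 gene after ABA. Within a sample this proportion does not depend on how the libraries are scaled. BnaA05g05420D held 55.0% (Wilson 95% interval 50.04 to 59.9), 54.2% (44.8 to 63.3) and 57.6% (55.8 to 59.3) of the reads of both genes in mock-treated replicates 1, 2 and 3. At 15 min it held 47.3% (41.9 to 52.8), 21.3% (13.6 to 31.9) and 52.4% (48.3 to 56.3), and at 60 min it held 17.2% (7.60 to 34.5), 24.0% (11.5 to 43.4) and 27.6% (17.8 to 40.2). The shares at 60 min lay below all shares with mock treatment, and their intervals did not overlap with those of any mock-treated sample. These intervals cover counting error only. The shares are built from the levels by which the pair was chosen, so they are a description and no test. Replicate 2 was already in the 60-min range at 15 min, while replicates 1 and 3 were not.

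The mean share was 55.6 ± 1.77% with mock treatment, 40.3 ± 16.7% at 15 min and 22.9 ± 5.25% at 60 min (SD, n = 3 each). The spread between mock-treated samples was small in this measure although the levels themselves differed by 25.7 and 22.4 times between them. Expressed as the log2 ratio of BnaA05g05420D to BnaC04g04830D, the difference between 60 min and mock was -2.23, -1.66 and -1.73 in replicates 1, 2 and 3, with a mean of -1.87 (SD 0.31). Between 15 min and mock it was -0.44, -2.003 and -0.31, with a mean of -0.92 (SD 0.94). Between 60 min and 15 min it was -1.79, 0.34 and -1.43. The ratio was thus lower at 60 min than with mock treatment in 3 of 3 pairs, lower at 15 min than with mock treatment in 3 of 3 and lower at 60 min than at 15 min in 2 of 3. An exact two-sided paired permutation test over 3 pairs cannot give a p below 0.25, and the ratio is built from the levels by which the pair was chosen, so these values are a description. Reads that mapped to more than 1 place were discarded by the counting, and how similar the transcripts of the pair are was not tested, so the division of reads between them is uncertain to that extent.

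**Figure D2:**
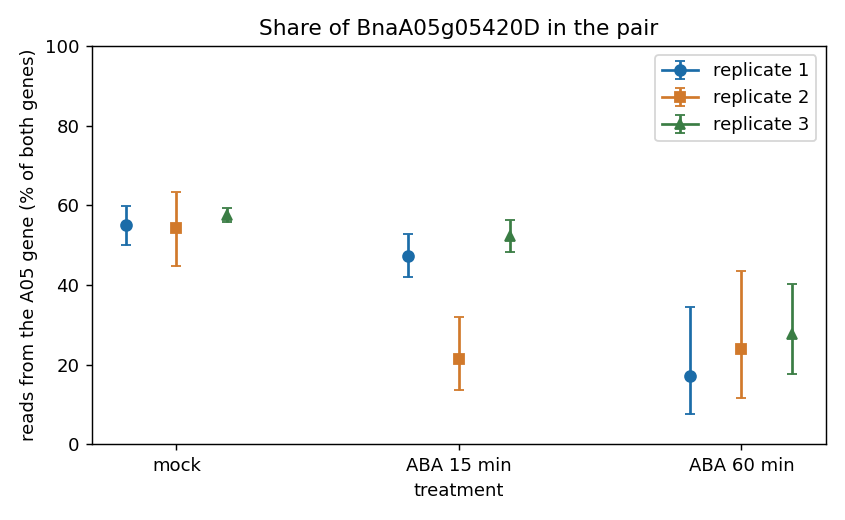
Share of BnaA05g05420D in the reads of both genes, in percent, for each sample by treatment and replicate number. Bars are Wilson 95% intervals and cover counting error only. Mock-treated samples lie between 54.2% and 57.6%, and samples taken at 60 min between 17.2% and 27.6%.

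The study's list names 3 further genes as *PYL6*. BnaA04g29300D had 64.5, 30.0 and 115 CPM in mock-treated replicates 1, 2 and 3, 47.9, 29.0 and 62.1 CPM at 15 min and 18.7, 12.6 and 19.2 CPM at 60 min. BnaC04g47050D had 25.02, 8.40 and 59.4 CPM with mock treatment, 19.7, 7.73 and 35.5 CPM at 15 min and 7.15, 3.24 and 9.32 CPM at 60 min. BnaC03g22610D had 0.679, 0.259 and 2.07 CPM with mock treatment, 0.452, 0.147 and 0.697 CPM at 15 min and 0.231, 0.0601 and 0.0439 CPM at 60 min. All 3 genes were lower at 60 min than with mock treatment in every replicate, but the ranges of BnaC04g47050D overlapped because its mock-treated replicate 2 was low.

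In edgeR's quasi-likelihood test with Benjamini-Hochberg adjustment over all genes, the log2 fold change at 60 min against mock was -1.89 (SE 0.19, adjusted p = 6.9e-05) for BnaA04g29300D. It was -1.99 (SE 0.19, adjusted p = 4.5e-05) for BnaC04g47050D and -3.01 (SE 0.57, adjusted p = 0.0035) for BnaC03g22610D. These 3 genes therefore fell at 60 min. For BnaC03g22610D the log2 ratio to mock was -1.49, -1.84 and -5.10 in replicates 1, 2 and 3, so the size of its fall depended on replicate 3. Its 60-min levels of 0.0601 and 0.0439 CPM in replicates 2 and 3 lay close to the level of 3 reads there, 0.0300 and 0.0264 CPM. The study picked its list by the size and significance of the change in this experiment, without naming the exposure time. The calls are therefore no independent evidence of a change or of its direction. The model fitted differences in level between replicate numbers, so the p-values measure how the treatment difference varied between those pools of protoplasts. At 15 min none of the 3 was called by edgeR or by DESeq2, with log2 fold changes of -0.48, -0.43 and -1.11, while all 3 had an unadjusted p below 0.05. The pair contributed 4.24%, 2.33% and 11.3% of the reads of the 5 listed *PYL6* genes in mock-treated replicates 1, 2 and 3. It contributed 3.36%, 1.84% and 4.09% at 15 min and 1.10%, 1.55% and 1.75% at 60 min. Most reads of the listed *PYL6* genes thus came from the other 3 in every sample. The pair's share was lower at 60 min than with mock treatment in each replicate. The list holds only genes picked for a change, so any further *PYL6* genes are outside these shares.

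The list holds 18 ABA receptor genes, of which 16 are outside the pair, and all 16 could be tested. At 60 min against mock, 15 of them fell and 1 rose, with a median log2 fold change of -1.91 and a range of -3.01 to 1.18. Over all genes tested, 10.6% were called lower and 15.2% higher in this comparison, and the median was -0.03. Because the listed genes were picked for a change in these data, no excess is read from the shares over all genes. The 8 genes for PYL4 and PYL5, the receptors of the same subfamily as PYL6, ranged from -2.36 to -1.42 and all fell. The 4 genes for the dimeric receptors PYR1, PYL1 and PYL2 also fell, with a range of -1.35 to -1.08. The gene that rose was BnaA10g00540D, for PYL9, a monomeric receptor of another subfamily, at 1.18 (SE 0.08, edgeR adjusted p = 6.7e-06). The levels of *PYL9* were 48.2, 26.2 and 139 CPM at 60 min in replicates 1, 2 and 3, against 22.9, 12.5 and 52.6 CPM with mock treatment. Its ranges overlapped, and it was higher at 60 min within each replicate number. Of the 16 genes, 11 had all 60-min levels below all mock-treated levels, beside 6.16% of all genes.

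At 15 min against mock, 2 of the 16 receptor genes fell, none rose and 14 were not called, while 11 had negative values with an unadjusted p below 0.05 and none had a positive one. DESeq2 also called 2 lower and none higher. Over all genes, 0.0359% were called lower and 0.395% higher. Both of the called genes encode PYL4. BnaC03g21240D had 19.4, 23.0 and 22.7 CPM at 15 min in replicates 1, 2 and 3, against 40.1, 35.8 and 64.5 CPM with mock treatment, a log2 fold change of -1.08 (SE 0.16, edgeR adjusted p = 0.018). BnaA03g17720D had 47.5, 44.2 and 52.8 CPM at 15 min, against 74.1, 67.1 and 123 CPM with mock treatment, a log2 fold change of -0.83 (SE 0.12, edgeR adjusted p = 0.016). The ranges of both genes were separate. These calls depended on which replicates were used, as 0, 1 and 4 receptor genes were called lower without replicate 1, 2 and 3. The median over the 16 genes was -0.55, beside 0.00 over all genes tested, and the members of the pair had -1.83 and -1.12.

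Between 60 min and 15 min, 15 of the 16 genes fell and PYL9 rose, with a median of -1.17. Of all genes, 9.45% were called lower and 14.2% higher in this comparison. Without replicate 1 only 7 of the 15 were still called lower, and without the replicate block no receptor gene was called between 60 min and 15 min. Without the block 4 were called lower at 60 min against mock and none at 15 min against mock. Within each replicate number, the difference of BnaA05g05420D at 60 min against mock was the lowest among the 18 receptor genes. That of BnaC04g04830D ranked 2, 13 and 3 from the lowest in replicates 1, 2 and 3. At 15 min against mock BnaC04g04830D ranked 9, 18 and 2, so that its value in replicate 2 was the highest of all 18. The summed level of all 18 genes was 384, 250.2 and 715 CPM in mock-treated replicates 1, 2 and 3, 270.3, 192 and 384 CPM at 15 min and 178, 121 and 262 CPM at 60 min.

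**Figure D3:**
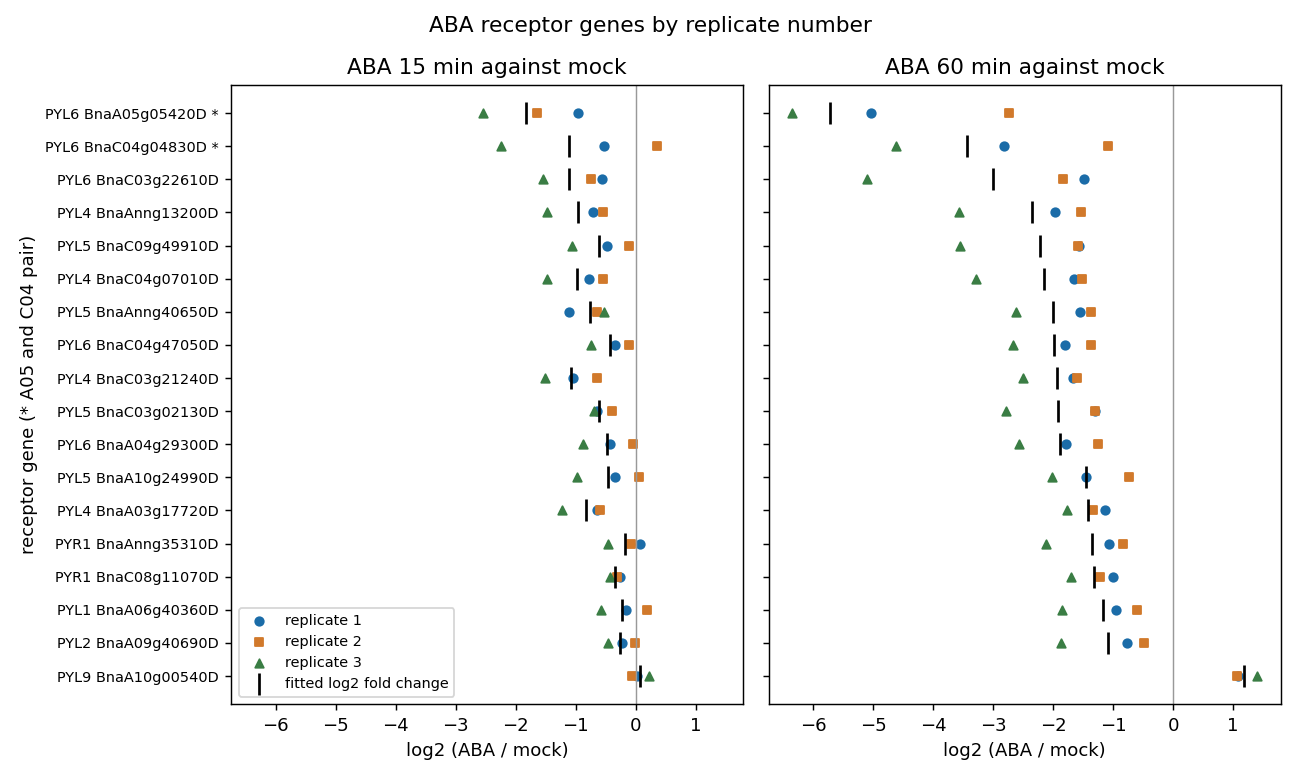
Log2 ratio of ABA to mock for the 18 listed receptor genes at 15 min (left) and 60 min (right). Coloured points are the 3 replicate numbers, black bars are the fitted log2 fold changes, and asterisks mark BnaA05g05420D and BnaC04g04830D. At 60 min the points of 17 genes lie below 0 in all replicates, those of *PYL9* lie above 0, and the green triangles of replicate 3 are the lowest in 17 genes.

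The listed genes of the next steps of the pathway rose at 60 min. They too were picked for a change in these data, so no excess is read from the shares over all genes beside their counts. Of the 19 listed genes for clade A PP2Cs, the phosphatases that the receptors inhibit, all 19 rose at 60 min against mock, with a median log2 fold change of 2.12 and a range of 1.03 to 6.46, beside 15.2% of all genes called higher. BnaC05g05180D, for the phosphatase AIP1, had 22.4, 32.1 and 25.4 CPM at 60 min in replicates 1, 2 and 3, against 0.329, 0.526 and 0.124 CPM with mock treatment. Its log2 fold change of 6.46 (SE 0.27, edgeR adjusted p = 1.2e-06) was the largest of the PP2C genes. At 15 min against mock 5 of the 19 rose, namely 3 genes for AHG3, 1 for AIP1 and 1 for HAI1, and 14 were not called, with a median of 0.63, beside 0.395% of all genes called higher. DESeq2 called 10 higher. BnaA01g37370D, for AHG3, had 9.55, 9.65 and 30.2 CPM at 15 min, against 1.10, 2.40 and 1.00 CPM with mock treatment, a log2 fold change of 3.35 (SE 0.44, edgeR adjusted p = 0.0091).

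Both listed genes for the kinase OST1 rose at 60 min, at 2.02 and 1.46, and neither was called at 15 min. All 11 genes for the bZIP factors ABF2, ABF3, ABF4 and ABI5, which activate ABA-responsive genes, rose at 60 min, with values of 1.11 to 3.93, the highest being that of BnaC07g44670D for ABF3. The share of all genes called higher was 15.2% at 60 min and 0.395% at 15 min. At 15 min none of the bZIP genes was called by edgeR or DESeq2, and 4 had an unadjusted p below 0.05. For OST1 no gene had an unadjusted p below 0.05 at 15 min, and DESeq2 called none. As with the receptors, these lists were picked by the study for their change in this experiment.

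**Figure D4:**
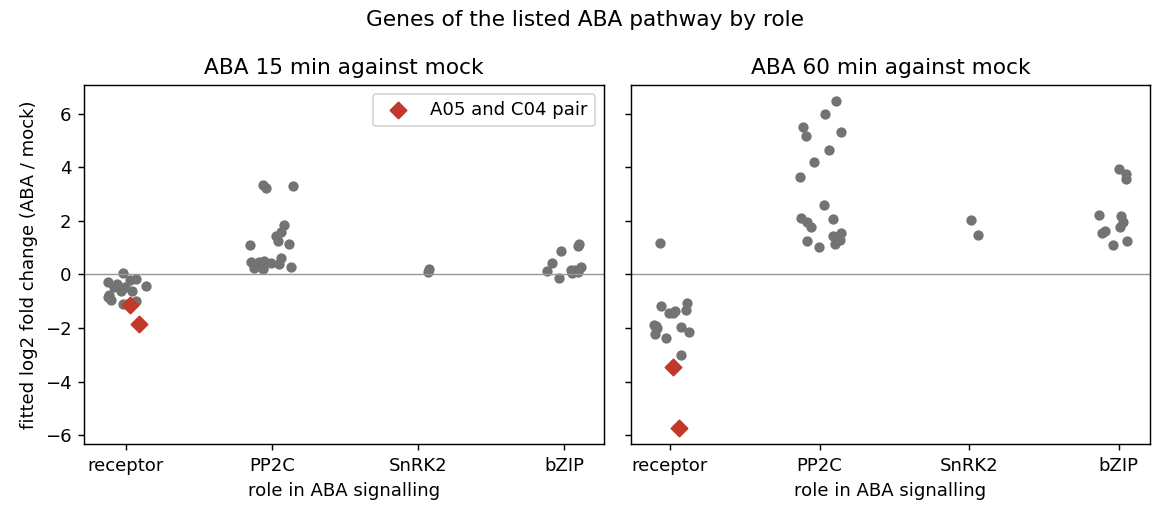
Fitted log2 fold change of ABA against mock for the listed receptor, PP2C, SnRK2 and bZIP genes at 15 min (left) and 60 min (right), with 1 point for each gene and red diamonds for BnaA05g05420D and BnaC04g04830D. At 60 min the receptor points other than *PYL9* lie below 0, and the 19 PP2C, 2 SnRK2 and 11 bZIP points lie above 0.

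The genes whose levels followed the pair most closely were sought by Pearson correlation of log2 CPM over the 9 samples, among the 51251 tested genes that averaged 10 counts or more. The samples share 3 replicate numbers and 3 treatments, so the values are a description. Closest to BnaA05g05420D were BnaA03g50420D (r = 0.986), BnaC05g06510D (r = 0.980) and BnaC07g35150D (r = 0.979), for which no annotation was used here. Closest to BnaC04g04830D were the *PYL1* gene BnaA06g40360D (r = 0.984), BnaA08g21680D (r = 0.984) and BnaA03g50420D (r = 0.980). The members of the pair correlated with each other at r = 0.969, which ranked 12 in both directions. The correlation does not measure the size of a change. The *PYL1* gene had 4.47, 3.79 and 4.65 CPM at 60 min in replicates 1, 2 and 3, against 8.67, 5.76 and 16.8 CPM with mock treatment.

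When the mean of each replicate number was first subtracted, other genes came closest. For BnaA05g05420D these were BnaCnng71330D (r = 0.994), BnaAnng20450D (r = 0.994) and BnaC09g35130D (r = 0.992). For BnaC04g04830D they were BnaA02g04330D (r = 0.993), the *PYL5* gene BnaA10g24990D (r = 0.993) and BnaC01g10100D (r = 0.993). The pair itself then had r = 0.959, which ranked 286 seen from the gene on A05 and 249 seen from the gene on C04. None of the genes closest by one measure was among the closest 3 by the other.

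The genes with the nearest ID numbers were examined in the same way. Of the 10 IDs nearest to BnaA05g05420D, 5 on either side, 3 had no count and 6 could be tested. Their log2 fold changes at 60 min against mock ranged from -0.72 to 0.12. Of the 10 nearest to BnaC04g04830D, 4 had no count and 5 could be tested, with a range of -0.19 to 0.07. None of these 11 genes was called by edgeR in any of the 3 comparisons, and 1 had an unadjusted p below 0.05 at 60 min against mock and none in the other comparisons. DESeq2 called none of those for which it gave an adjusted p, which it did not give for 1 gene at 60 min against mock and for 3 genes at 60 min against 15 min. Of all genes, 10.6% were called lower and 15.2% higher at 60 min against mock, but only 0.0359% and 0.395% at 15 min against mock, where a count of 0 is no more than the background, and 9.45% and 14.2% at 60 min against 15 min. A pair of *MPK12* genes lies near the receptor genes by ID, BnaA05g05340D 8 IDs away on A05 and BnaC04g04740D 9 IDs away on C04. They rose at 60 min against mock, at 1.21 and 1.00. Their mock-treated levels were highest in replicate 3, as in the receptor genes, at 157 CPM on A05 and 137 CPM on C04, against 28.2 and 46.2 CPM in replicate 2.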

How the data were processed

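RNA from guard cell protoplasts was sequenced in 9 samples, 3 per group. The authors aligned reads to the *B. napus* Darmor genome with TopHat2 and counted them per gene with HTSeq, leaving out multi-mapped reads. Raw counts were deposited, and 0 columns were left unused. Whether counting used strand, and which annotation release, is not given in the sources used here, and counts of similar or overlapping genes are uncertain for that reason. Names were taken from the study's table of ABA signalling genes. A RefSeq gene table matched 3347 IDs but no gene listed here, and sequences and gene lengths were not used. Comparisons of reads between genes, such as the shares within the pair and within the listed *PYL6* genes, are therefore not adjusted for gene length.

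Counts were fitted with edgeR 4.0.16 under R 4.3.3 (filterByExpr, TMM, quasi-likelihood test) in 1 model of all samples, with terms for treatment and for replicate number (the block), as in the study's methods. Benjamini-Hochberg adjusted p-values below 0.05 over 52881 genes were called. Standard errors were obtained from the log2 fold change and the F statistic (size over root F). Log2 CPM used a prior count of 2. Deviations from group means correlated at 0.715 to 0.851 between samples of the same replicate number and at -0.588 to -0.156 otherwise, so the numbers pair the samples. No 2 libraries of a group agreed within sampling noise. Scripts were tested on simulated data. Alternatives were DESeq2 1.42.0, other scalings, filters, prior counts and blocks, fits restricted to the groups compared, and omission of each replicate number.

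Both genes of the pair and all lists were chosen with earlier results of these data known. The genes named are the pair, the other *PYL6* rows, up to 4 examples per role with the largest changes, the 3 genes most like each member, and neighbours by ID. The PP2C genes called at 15 min were named after their values were seen. Of the marker lists fixed for guard cell, mesophyll, epidermal and vascular cells, only *MPK12*, *ALMT12*, *OST1* and *CAB1* rows could be paired with IDs.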

Additional observations from a re-analysis of the deposited data

How the results depend on the processing

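For the pair, every alternative run kept the fitted differences negative. Leaving out 1 replicate number at a time gave -6.16 to -4.54 for BnaA05g05420D at 60 min against mock, -2.34 to -1.20 at 15 min against mock and -4.27 to -3.35 at 60 min against 15 min. For BnaC04g04830D it gave -4.04 to -2.21, -1.53 to -0.20 and -2.51 to -2.01. Without the replicate block the values at 60 min against mock were -5.92 and -3.86, and scaling by total count alone gave -6.05 and -3.76. That scaling moved the median of all genes to -0.32 at 60 min against mock and to -0.27 at 60 min against 15 min, so that 15.2% and 16.4% of calls were higher, against 59.0% and 60.1% with TMM. The 15 other receptor genes below 0 and *PYL9* above 0 kept these signs at 60 min under each setting.

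Counts of called genes moved more. At 60 min against mock 13617 genes were called, 27358 with scaling by total count, 895 without the replicate block and 5819 to 10812 with 1 replicate number left out. At 15 min against mock 228 were called, 521 with DESeq2, 584 with no filter on low counts, 898 in a fit of only the groups compared, 5 without the block and 5 to 278 with a replicate left out. At 60 min against 15 min 12517 were called, 22798 with scaling by total count, 243 without the block and 3637 to 10843 with a replicate left out. Each lowest value was without replicate 1. Of the 16 receptor genes, 15 called lower and 1 called higher at 60 min against mock became 4 and 0 without the block. The 2 called lower at 15 min became 4 with no filter, 9 with only the groups compared, 0 without the block and 0 to 4 with a replicate left out. The 15 lower and 1 higher at 60 min against 15 min became 0 and 0 without the block, and 7 to 13 were lower with a replicate left out. The cause was not tested. Of the values recomputed, 148 were scored as the same, 14 as weaker, 8 as stronger and 0 as reversed. Counts scored as the same lay within a fixed factor of the main run. Fitted differences of the pair did so within their SD over the replicates, and ratios of the pair by keeping their sign. This scoring is wide: for BnaC04g04830D at 15 min against mock, -0.20 without replicate 3 was scored as the same as -1.12. The 5 to 16 reads of BnaA05g05420D at 60 min limit its shares and ratios to the intervals given.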
